A study of Mus musculus with 20 samples.

Results

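The response of mouse embryonic stem (ES) cells to 2i medium was examined at the level of local chromosome folding, by comparing the 5C libraries of V6.5 ES cells in 2i medium with those of V6.5 ES cells in pluripotent medium with LIF. The members were forward-reverse primer pairs within 1 region that averaged at least 10 counts over the 10 5C libraries, which kept 75889 of 97243 such pairs, and 4 of the 20 libraries of the series entered the contrast. V6.5 is a male ES cell line of 129SvJae x C57BL/6 background, and neither group carries a genetic change per the labels. The ES 2i cells (2 libraries) grew without serum in LIF with CHIR99021, an inhibitor of the kinase GSK3, and PD0325901, an inhibitor of the kinase MEK. The ES cells (2 libraries) grew in a LIF-supplemented medium for which the labels name no inhibitor and no serum. Both were first grown on mitotically inactivated mouse embryonic fibroblasts, then moved to gelatin to remove these feeders, and fixed with formaldehyde. Both groups are 1 cell line. The labels do not say whether replicates came from different cultures, so a p-value here measures only the spread between libraries, which may be technical. Beside them stand induced pluripotent stem (iPS) cells derived from Sox2-eGFP neural progenitor cells, in 2i medium and in the LIF-supplemented medium (2 libraries each), and the progenitors themselves.

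In 5C (chromosome conformation capture carbon copy), fixed chromatin is cut with a restriction enzyme, here HindIII, and ligated in place. Primers for chosen fragments are then joined and counted wherever their 2 fragments were ligated, so a count reflects how often the fragments met, how well each primer works and how far apart the fragments lie. Pluripotency genes such as Sox2, Klf4 and Nanog contact distal enhancers in ES cells, and 2i medium, which blocks differentiation signals through MEK and GSK3, holds such cells in a naive state. The primers covered 7 regions of mm9: Klf4 (chr4:54896446-55891772), Nanog (chr6:122186812-123334399), Nestin (chr3:87282064-88377995), Oct4 (chr17:34428607-36528892), Olig1-Olig2 (chr16:90611387-91756617), Sox2 (chr3:34107374-35107373) and a gene desert (chr5:133305260-133503397).

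Total counts were 11784821 and 14201950 in the ES 2i libraries, against 26533530 and 25791222 in the ES libraries. The median tested pair had 28 and 41 counts in the ES 2i libraries and 72 and 77 counts in the ES libraries. Pairs between regions took 8.06% and 15.8% of counts in ES 2i cells, against 17.4% and 18.9% in ES cells. Pairs of adjacent fragments took 32.8% and 29.7% of the counts within regions in ES 2i cells, against 25.6% and 19.8% in ES cells. The share of adjacent fragments was also higher with 2i medium in iPS cells, with 34.3% and 26.7% in iPS 2i cells and 18.4% and 20.8% in iPS cells. It was highest in the progenitors, with 45.7% and 43.4%. On 573 of 1544 single fragments, or 37.1%, both ES libraries lay outside the range of all 8 other 5C libraries. The same held for both ES 2i libraries on 174 fragments, or 11.3%, and was not counted for progenitors. Such counts also depend on how alike 2 replicates are. Over fragments, deviations from the mean of the 10 libraries had a Pearson correlation of 0.95 between ES replicates and 0.36 between ES 2i replicates. It was 0.29 in iPS, 0.07 in iPS 2i and 0.79 in progenitor cells. Because of these fragment differences, pairs, bin pairs and promoter windows are given without and with balancing of primers, and fragments and distance strata without it. Balancing is a correction that sets every primer's total in every library to its expected value. The size of a contact is given as observed over expected (O/E), where 1 is the mean pair of the same region, distance and library.

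The promoters whose contacts are described below are shown here for Sox2, Klf4 and Nanog, each as the 300 bases around the RefSeq gene start in GRCm38.p6, of which 250 lie before the start. They are chr3:34649745-34650044 (plus strand), chr4:55532426-55532725 (minus strand) and chr6:122707315-122707614 (plus strand). Of the 8 anchor symbols, 7 had a promoter in the table used, Nanog among them with 2 listed starts, of which the one shown was chosen because its HindIII site matches the primer positions.
Sox2: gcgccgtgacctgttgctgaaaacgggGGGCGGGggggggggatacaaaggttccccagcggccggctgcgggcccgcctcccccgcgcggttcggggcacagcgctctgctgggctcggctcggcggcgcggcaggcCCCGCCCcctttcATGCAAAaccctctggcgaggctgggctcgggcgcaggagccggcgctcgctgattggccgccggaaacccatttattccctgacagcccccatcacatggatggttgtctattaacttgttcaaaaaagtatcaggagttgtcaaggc
Klf4: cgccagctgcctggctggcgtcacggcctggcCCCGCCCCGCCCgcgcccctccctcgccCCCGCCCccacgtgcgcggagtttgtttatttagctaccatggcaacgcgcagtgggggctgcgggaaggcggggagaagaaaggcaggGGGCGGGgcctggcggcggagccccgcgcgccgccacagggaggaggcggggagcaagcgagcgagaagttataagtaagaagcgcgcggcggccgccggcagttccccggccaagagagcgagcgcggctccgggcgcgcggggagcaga
Nanog: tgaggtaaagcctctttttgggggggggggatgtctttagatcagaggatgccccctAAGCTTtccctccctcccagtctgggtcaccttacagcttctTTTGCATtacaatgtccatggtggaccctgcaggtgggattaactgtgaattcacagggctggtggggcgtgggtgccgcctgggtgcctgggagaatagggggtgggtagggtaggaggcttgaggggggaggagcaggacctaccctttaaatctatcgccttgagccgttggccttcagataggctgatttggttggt
Capitals mark 3 motifs searched on both strands, without overlap between different motifs: AAGCTT, the HindIII site that sets the ends of 5C fragments, TTTGCAT, the core of the octamer bound by Oct4, and GGGCGGG, the GC box. The HindIII site stands in 7.45%, the octamer core in 4.63% and the GC box in 25.6% of all 32851 promoters of this length in the table. The Nanog promoter holds the HindIII site at position -193 from the start and the octamer core at -151, the Sox2 promoter holds the octamer core at -99 and the GC box at -223 and -112, and the Klf4 promoter holds the GC box 4 times and neither of the other motifs. In the mm9 primer positions, the fragment with the start of Nanogpd, the transcript model used here for the Nanog locus, begins 192 bases upstream of that start. The fragment with the Sox2 start (chr3:34546432-34549386) gave 119 and 167 counts in ES 2i cells and 269 and 262 counts in ES cells over all 132 partners, and none of its pairs passed the count filter, so contacts of the Sox2 promoter rest on its neighbours within 10 kb.

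Fragments were tested each by itself. Summed over their tested partners at equal distance, 583 of 1544 fragments were called in edgeR (Benjamini-Hochberg adjusted p under 0.05; 37.8% of fragments), 312 higher (20.2%) and 271 lower (17.6%) in ES 2i cells. The median absolute log2 change was 0.35, 139 fragments changed by more than 1 in log2 (95 higher and 44 lower), and all 12 beyond 2 were higher. Both ES libraries lay below all 8 other libraries in 229 of the 312 higher fragments and above all of them in 181 of the 271 lower fragments, whereas both ES 2i libraries were the highest in 54 and the lowest in 64 of these. Over all 1544 fragments both ES libraries were the lowest in 333 and the highest in 240. Both ES 2i libraries were the highest in 78 and the lowest in 96 of all. The calls rest on the same libraries, so part of this order is set by the choice of fragments.

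The 3 strongest changes, all rises beyond 4 in log2, were on reverse-primer fragments that were nearly silent in ES cells. A fragment downstream of Olig1 (chr16:91318837-91324345) had 21671 and 22081 counts in ES 2i cells, against 1387 and 1401 counts in ES cells (log2 change 5.01 ± 0.15 SE, edgeR adjusted p = 7.37e-09). A fragment in the Nestin region that overlaps Arhgef11 (chr3:87423370-87424260) had 2640 and 4355 counts in ES 2i cells, against 171 and 216 in ES cells (log2 change 4.79 ± 0.31, edgeR adjusted p = 4.84e-06). A fragment in the Nanog region (chr6:122291909-122293427) had 4912 and 10339 counts in ES 2i cells and 227 and 201 in ES cells (log2 change 5.82 ± 0.40, edgeR adjusted p = 6.99e-06). On all 3, the ES 2i libraries lay within or near the range of the iPS and progenitor libraries and the ES libraries far below it, at an O/E of 0.00864 to 0.0633. In the Oct4 region, a forward fragment with the start of Mdc1, a DNA damage checkpoint gene (chr17:35977606-35988580), had an O/E of 0.839 and 0.824 in ES 2i cells and 0.113 and 0.126 in ES cells (log2 change 2.80). Among fragments averaging at least 500 counts, the 5 strongest falls were between -1.42 and -1.74 in log2, on 2 Oct4, 2 Olig1-Olig2 and 1 Sox2 fragment without a gene start. On the lower Olig1-Olig2 fragment at chr16:90918150-90919518, the O/E was 0.653 and 0.826 in ES 2i cells and 2.33 and 2.08 in ES cells.

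**Figure D1:**
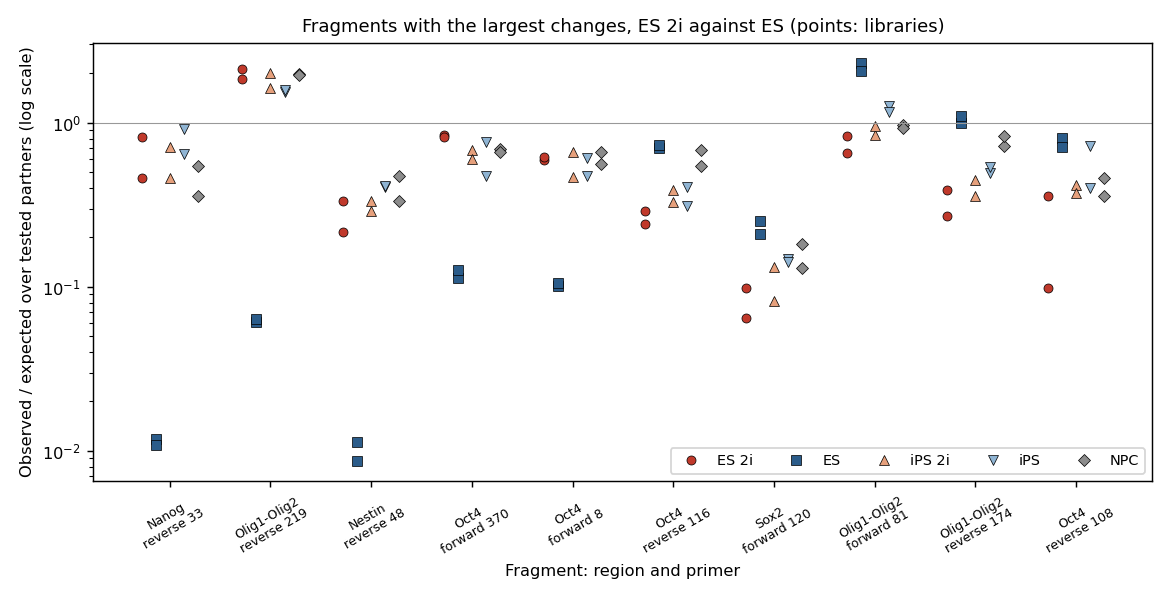
Observed over expected count (log axis) of the 10 fragments with the largest changes, 5 higher and 5 lower in ES 2i cells, with each library as a point and groups as marker shapes. On the 5 higher fragments the ES squares lie alone below all others, down to 0.00864, while the ES 2i circles lie beside iPS and progenitor cells.

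The change of a fragment moved with its length. Among the 387 shortest fragments (median 0.536 kb) 31 were higher and 113 lower in ES 2i cells, and among the 386 longest (median 7.65 kb) 149 were higher and 12 lower. The Spearman correlation between length and change was 0.39 over 1544 fragments in ES cells and 0.35 for the same relation in iPS cells, a description over fragments that share libraries and primers. Neighbouring fragments changed alike to a limited degree, with a Pearson correlation of 0.25 over 1179 pairs in ES cells. Of 63 fragments with a gene start, 20 were higher and 4 lower (median log2 change 0.28), against 292 and 267 of 1481 others (median 0.02). Fragments with a gene start were also longer, with a median of 6.70 kb against 2.47 kb, and the part of length in their change was not tested.

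At the promoters this gave unlike changes. All 3 fragments in the window of Pou5f1, the gene of Oct4, were higher in ES 2i cells, with a median log2 change of 1.06. The fragment with its start had an O/E of 2.31 and 1.55 in ES 2i cells, against 1.04 and 1.04 in ES cells (edgeR adjusted p = 0.00503). The fragment with the start of Olig2, an oligodendrocyte transcription factor gene, had 0.487 and 0.583 in ES 2i cells and 0.273 and 0.265 in ES cells (edgeR adjusted p = 0.0191), and in the windows of Olig1 and Olig2 3 of 5 fragments each were higher. The Klf4 start fragment (log2 change 0.06) and the Nanogpd start fragment (-0.03) did not pass the test, with 1 of 5 and 3 of 6 fragments higher in their windows. Around Sox2, 0 of 5 fragments were higher and 1 was lower.

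Between fragments, 8952 of 75889 pairs were called in edgeR without balancing (11.8%), 4954 higher (6.53%) and 3998 lower (5.27%) in ES 2i cells, and 366 with balancing (0.482%), 153 higher (0.202%) and 213 lower (0.281%). Summed over pairs of 20 kb bins and fixed promoter windows, 2445 of 8737 features were called without balancing (28%; 1458 higher or 16.7%, and 987 lower or 11.3%) and 526 with it (6.02%; 234 higher or 2.68%, and 292 lower or 3.34%). In the bin values the authors deposited, which they normalized over 10 libraries, limma called 33137 of 152941 overlapping bin pairs (21.7%), 16505 higher and 16632 lower. Between the fits without and with balancing, 307 features were called both ways in the same direction and 12 in opposite directions, all 12 of them between bins at most 50 kb apart. The median absolute log2 change of a bin pair was 0.39 without balancing and 0.19 with it. Balanced calls were most frequent at short range, with 21.4% of bin pairs up to 50 kb apart and 2.73% of those more than 400 kb apart. By region, balanced calls covered 8.16% of bin pairs in Oct4, 6.59% in Nestin, 6.18% in Sox2, 5.45% in Klf4, 3.57% in Olig1-Olig2 and 3.35% in Nanog. In the gene desert, a control region, 10 of 48 bin pairs were called without balancing (7 higher and 3 lower) and 0 with it.

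The balanced count fell when any of the 4 libraries was left out. Without ES 2i replicate 1, 0 bin pairs passed in edgeR (1067 at an unadjusted p under 0.05), and without ES replicate 2, 2 passed. Without ES 2i replicate 2 and ES replicate 1 the counts were 190 and 327. When pairs of adjacent fragments were left out, 380 of 8643 features were called with balancing (4.4%; 190 higher and 190 lower). Of these, 268 were called with the same sign in both balanced fits, and 164 of the 268 also without balancing, 80 higher and 84 lower. The Oct4 region, with 2648 of the 8407 tested bin pairs, held 41 of the higher and 38 of the lower ones, followed by Sox2 (13 and 14), Nestin (10 and 15), Klf4 (6 and 7), Olig1-Olig2 (2 and 7) and Nanog (4 and 2).

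Contacts of the Klf4, Sox2 and Nanog promoters with their downstream elements were higher in ES 2i cells without balancing, and those of Klf4 and Nanog also with it. For Klf4, a reprogramming factor, the contact of its promoter with the enhancer window 62.5 kb downstream (chr4:55535347-55555347 with chr4:55470347-55495347; 12 primer pairs) had an O/E of 3.87 and 3.46 in ES 2i cells, against 1.65 and 1.48 in ES cells (log2 change 1.23 ± 0.18 SE, edgeR adjusted p = 0.000234). With balancing it had 2.83 and 2.64 in ES 2i cells, against 2.11 and 2.02 in ES cells (0.41 ± 0.09, edgeR adjusted p = 0.0223). The groups did not overlap either way. The balanced call held without adjacent pairs (0.26, edgeR adjusted p = 0.037) and was lost when any of the 4 libraries was left out, although the change then stayed between 0.36 and 0.46. The authors' deposited bin values gave 0.66 with limma, and over 9 other settings the adjusted p ran from 0.00536 to 0.273.

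For Sox2, a transcription factor shared by pluripotent and neural cells, the contact with its control region 105 kb downstream (chr3:34538927-34558927 with chr3:34643927-34663927; 7 primer pairs) had 8.53 and 6.94 in ES 2i cells, against 4.78 and 4.24 in ES cells (log2 change 0.78 ± 0.22, edgeR adjusted p = 0.0147). That call was lost without ES 2i replicate 1 (0.62), ES replicate 1 (0.87) or ES replicate 2 (0.69), and in the authors' deposited bin values tested with limma (0.36). With balancing the values were 6.89 and 6.79 in ES 2i cells and 6.13 and 5.65 in ES cells, which did not pass (0.22 ± 0.07, edgeR adjusted p = 0.0943), and without adjacent pairs the balanced change was 0.06. The Sox2 promoter window did pass with a bin 48.4 kb downstream, short of the control region, where the balanced O/E was 2.16 and 2.14 in ES 2i cells and 1.46 and 1.39 in ES cells (0.59 ± 0.08, edgeR adjusted p = 0.00312; 0.35 and 0.0102 without adjacent pairs). Like every balanced call of a bin pair or window, this call was lost without ES 2i replicate 1.

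At Nanog, a homeodomain factor of naive cells, the window 60 kb downstream (chr6:122647586-122667586 with chr6:122707586-122727586; 17 primer pairs) had 4.00 and 3.74 in ES 2i cells, against 2.44 and 2.37 in ES cells (log2 change 0.69 ± 0.14, edgeR adjusted p = 0.00242). With balancing it had 3.09 and 2.89 in ES 2i cells and 2.39 and 2.36 in ES cells (0.33 ± 0.06, edgeR adjusted p = 0.0146). This balanced call was lost without ES 2i replicate 1 (0.28), without ES replicate 2 (0.33) and without adjacent pairs (0.16, edgeR adjusted p = 0.0826). The window 45 kb upstream of Nanog had 4.23 and 4.19 in ES 2i cells and 3.82 and 3.19 in ES cells and passed neither way (0.26, edgeR adjusted p = 0.176; balanced 0.04).

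At the neural genes, the difference was called without balancing and not with it. Olig1 with Olig2, which lie 44.2 kb apart, had 2.11 and 1.92 in ES 2i cells and 1.20 and 1.13 in ES cells (log2 change 0.79 ± 0.18, edgeR adjusted p = 0.00479). That call was lost with 10 strata (0.31), with TMM scaling (0.53) and without ES replicate 2 (0.75). With balancing they had 2.90 and 2.81 in ES 2i cells and 2.90 and 2.88 in ES cells (-0.01, edgeR adjusted p = 0.923), while the authors' deposited bin values gave 0.75 with limma (adjusted p = 0.0223). Nes, which encodes the filament protein nestin of neural stem cells, with Bcan, a brain proteoglycan gene 29.3 kb away, had 1.91 and 2.07 in ES 2i cells and 1.41 and 1.37 in ES cells (0.52, edgeR adjusted p = 0.0139), on 3 primer pairs. With balancing the means were 1.86 ± 0.12 in ES 2i cells and 2.00 ± 0.13 in ES cells (SD, n = 2 each), and the groups overlapped (-0.10, edgeR adjusted p = 0.548). The Nes-Bcan call without balancing was lost without ES 2i replicate 2, ES replicate 1 or ES replicate 2. The Nes window rests on 1 fragment of 33.9 kb (chr3:87759491-87793437), which ends just before the Bcan window (chr3:87794278-87814278). Too few primer pairs were left to test this contact without adjacent pairs.

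**Figure D2:**
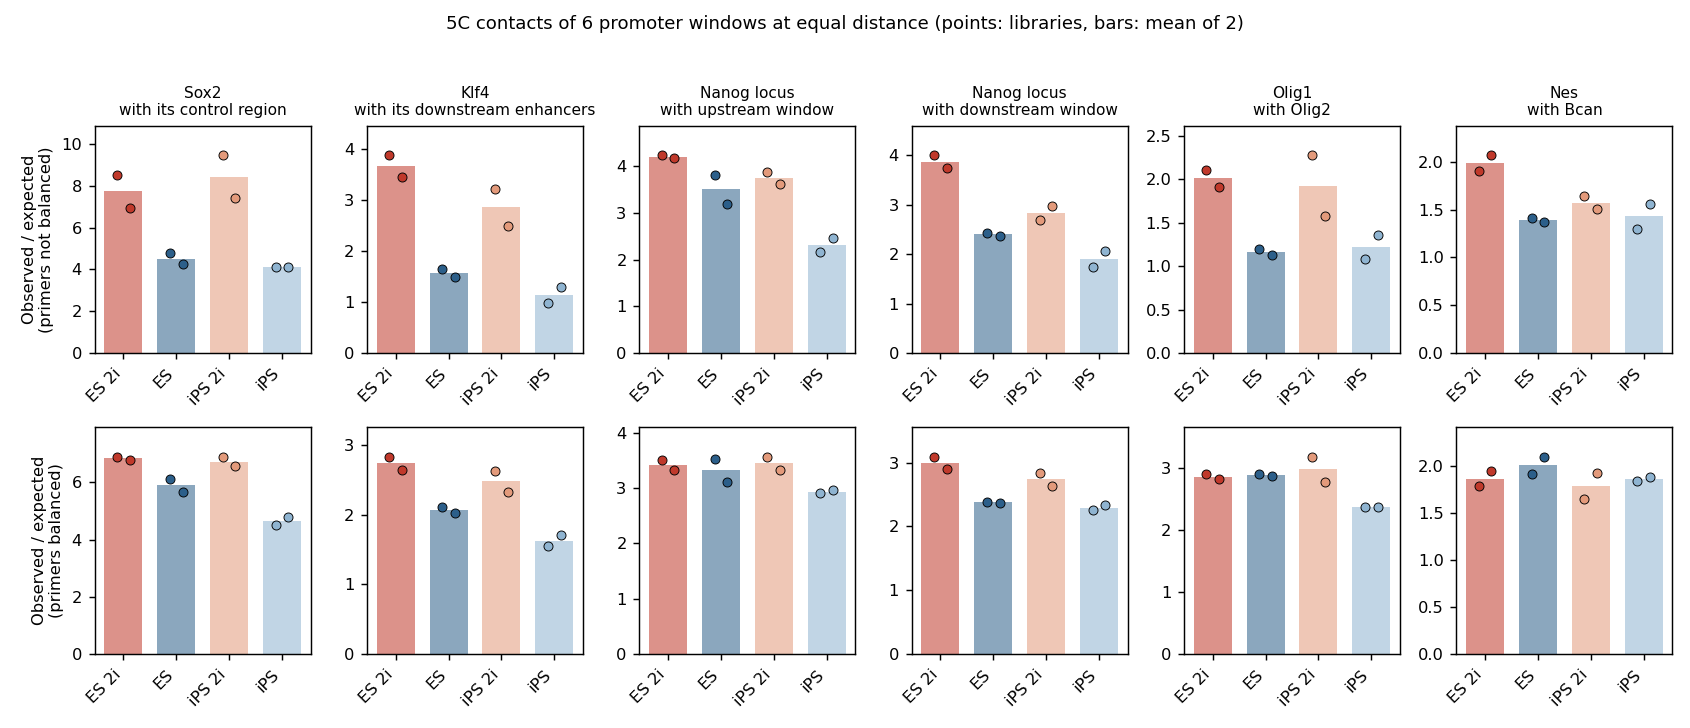
O/E of 6 promoter windows, without (top row) and with (bottom row) balancing of primers, with libraries as points and the mean of 2 as bars. The Klf4 and Nanog downstream windows are higher in ES 2i than in ES cells in both rows, while Olig1 with Olig2 differs without balancing (log2 change 0.79) and not with it (-0.01).

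Along the regions, contacts of the 7 promoters with 324 distant bins were mostly higher without balancing, where 130 were called higher and 7 lower, against 16.7% higher and 11.3% lower among all features. For Pou5f1, 50 of 70 bins were higher and 1 lower, and 24 of 53 were higher and 0 lower for Olig2. The bins of a promoter share the fragments of its window, so their calls are not separate results. All 3 fragments of the Pou5f1 window were themselves higher, and with balancing 3 Pou5f1 bins were higher and 1 lower. With balancing 14 of the 324 were higher and 5 lower, against 2.68% and 3.34% of all features. These bins lay on the downstream side for Sox2, at 48.4, 68.4 and 128 kb (log2 change 0.59, 0.33 and 0.39), and for Klf4, at 58.9, 78.9 and 139 kb (0.39, 0.51 and 0.45). The Klf4 bin at 139 kb overlaps Rad23b, a DNA repair gene. For Nanog, 4 bins were higher, 341 kb upstream (0.50) and 59.2, 119 and 159 kb downstream (0.32, 0.25 and 0.40), and the last 2 hold the starts of Foxj2, a forkhead factor gene, and Necap1, an endocytosis gene. Without adjacent pairs, the Sox2 bin at 48.4 kb kept its call and the Sox2 bins at 68.4 and 128 kb and all Klf4 and Nanog bins did not. Without balancing, the Sox2 bins at 68.4 and 128 kb (0.42 and 0.59) were not called. The same held for the Nanog bins 341 kb upstream (0.28) and 119 kb downstream (-0.11).

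With balancing, bins of the other promoters went both ways. Pou5f1 had a lower bin 164 kb upstream (balanced O/E 0.214 and 0.263 in ES 2i cells, against 0.414 and 0.454 in ES cells; log2 change -0.87 ± 0.17, edgeR adjusted p = 0.0167) and higher bins at 95.6, 616 and 736 kb downstream (0.31, 0.95 and 0.69). Olig1 was lower with bins 68.6 kb upstream and 31.4 and 51.4 kb downstream (-0.42, -0.48 and -0.30), while Olig2 was higher with a bin 75.6 kb downstream (0.34). The Nes promoter was lower with a bin 257 kb downstream (-0.82), on 3 primer pairs. Of these, the Pou5f1 bins at 164 and 616 kb, the 3 Olig1 bins, the Olig2 bin and the Nes bin kept their calls without adjacent pairs. Without balancing, the Pou5f1 bin at 164 kb had a log2 change of 0.31 and was not called (edgeR adjusted p = 0.234). The 3 Olig1 bins then changed by -0.15, -0.09 and 0.41 and were not called either. The other bins named here were called in the same direction without balancing.

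**Figure D3:**
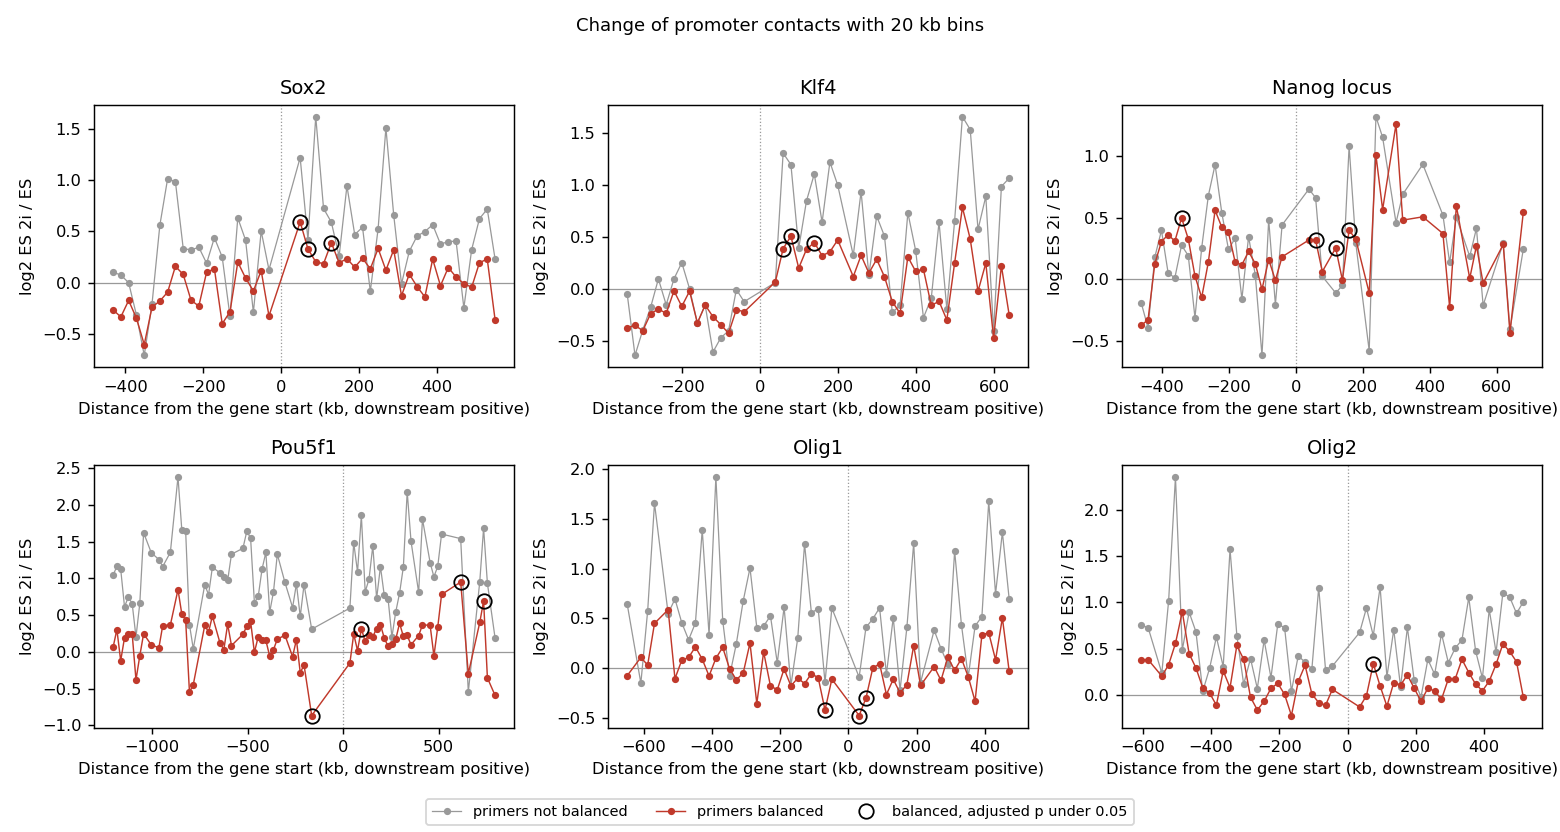
Log2 change, ES 2i over ES, of contacts of 6 promoters with 20 kb bins against distance from the gene start in kb, without balancing (grey) and with balancing (red, circled where edgeR adjusted p is under 0.05). Grey lines lie mostly above 0, with 50 of 70 Pou5f1 bins called higher, while circled bins are few, 3 for Sox2 and 3 for Klf4, all downstream.

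By the naming rule, the 6 highest and 6 lowest bin pairs were taken from 304 that passed with and without balancing, and 11 of these 12 lay in the Oct4 region, which spans the major histocompatibility complex. A bin with the starts of Mdc1 and Tubb5, a tubulin gene, also overlaps Flot1, a membrane scaffold gene. It contacted a bin 80 kb away with the starts of Mrps18b, of the mitochondrial ribosome, and Ppp1r10, of a nuclear phosphatase complex. The balanced O/E was 0.873 and 0.829 in ES 2i cells, against 0.625 and 0.603 in ES cells (log2 change 0.47 ± 0.09, edgeR adjusted p = 0.0167, and 2.85 without balancing). The same partner bin was also higher with a bin 900 kb away that overlaps Vars, a tRNA synthetase gene. The balanced O/E of that contact was 1.13 and 0.952 in ES 2i cells and 0.606 and 0.534 in ES cells (0.86 ± 0.17). The partner bin was likewise higher with a bin 60 kb away that holds the start of Nrm and part of Mdc1. The balanced O/E of that contact was 0.422 and 0.403 in ES 2i cells and 0.302 and 0.298 in ES cells (0.46 ± 0.08). A bin with the starts of Flot1 and Ier3, an immediate early response gene, and a bin 1320 kb away had 2.67 and 2.49 in ES 2i cells and 0.860 and 0.977 in ES cells (1.49 ± 0.34, on 3 primer pairs). The bin with Pou5f1 rose with a bin 100 kb away (1.86 without and 0.31 with balancing), and the balanced call was lost without adjacent pairs. The only bin pair outside the Oct4 region joined the enhancer bin downstream of Klf4 with the start of Zfp462, a zinc finger gene, 520 kb away, with a balanced O/E of 2.92 and 1.75 in ES 2i cells and 1.37 and 1.40 in ES cells (0.75 ± 0.21, edgeR adjusted p = 0.0469; 0.51 and 0.111 without adjacent pairs).

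The lowest bin pairs lay 320 to 1320 kb apart. A bin that overlaps Stk19 and a bin 960 kb away had a balanced O/E of 11.4 and 13.5 in ES 2i cells, against 21.2 and 26.9 in ES cells (log2 change -0.94 ± 0.12, edgeR adjusted p = 0.00331). The start of Gm8909 and a bin 780 kb away had 14.4 and 17.0 in ES 2i cells and 28.2 and 30.3 in ES cells (-0.90 ± 0.12). The starts of Abhd16a and Ly6g6d and a bin 720 kb away had 0.504 and 0.671 in ES 2i cells and 2.15 and 3.25 in ES cells (-2.20 ± 0.30). An O/E above 10 at such distances is high in every group, and this region holds families of near-identical genes, so whether the counts of these pairs come from the named places was not tested. The remaining 3 of the 6 lowest, without a gene start, changed by -0.73, -0.84 and -1.21 with balancing. Without adjacent pairs the last of these lost its balanced call (-0.75, edgeR adjusted p = 0.224), and the other 5 kept theirs.

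Single primer pairs named by the same rule, out of 221 that passed, showed the same spread. In the Nestin region, fragments 409 kb apart (chr3:87868334-87871182 and chr3:88276476-88280556) had 309 and 244 counts in ES 2i cells, against 31 and 43 in ES cells (balanced log2 change 1.46, edgeR adjusted p = 0.0408). In the Oct4 region, 2 fragments 1063 kb apart overlap Slc44a4, a choline transporter family gene, and Gnl1, a GTP-binding protein gene. They had 124 and 82 counts in ES 2i cells and 13 and 35 in ES cells (balanced 2.74). A fragment that overlaps Bat1a, an RNA helicase gene, and a fragment 731 kb away had 11 and 29 counts in ES 2i cells, against 544 and 597 in ES cells (balanced -3.27, edgeR adjusted p = 0.0125). The naming rule took only pairs whose groups did not overlap in O/E, so this separation is not a result. All counts are from libraries of unequal depth, lower in ES 2i cells.

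The share of each region's counts by distance was tested over 140 strata, and 37 were called in edgeR (26.4%), 4 higher (2.86%) and 33 lower (23.6%) in ES 2i cells. The nearest stratum was higher in Sox2 (log2 change 0.38, edgeR adjusted p = 0.0151), Klf4 (0.31, 0.0412) and Olig1-Olig2 (0.30, 0.0417), and the lower strata were 14 in Sox2, 13 in the gene desert, 5 in Klf4 and 1 in Oct4. Of the 1164 tested pairs of adjacent fragments, 323 were called higher and 73 lower at equal distance without balancing, and 72 higher and 13 lower with it. Without pairs of adjacent fragments 5 strata were called (3.57%), 3 of them higher in Oct4 and 1 higher and 1 lower in the gene desert. Without ES 2i replicate 1, 0 strata passed (18 at an unadjusted p under 0.05), and without ES replicate 2, 2 passed. In iPS 2i against iPS cells 85 strata were called (60.7%), and 10 higher and 57 lower ones without adjacent pairs, and the difference of the 2 responses was called for 0 strata (6 at an unadjusted p under 0.05). Adjacent fragments moved with this result, and the part of cutting, ligation or folding in their share was not tested.

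**Figure D4:**
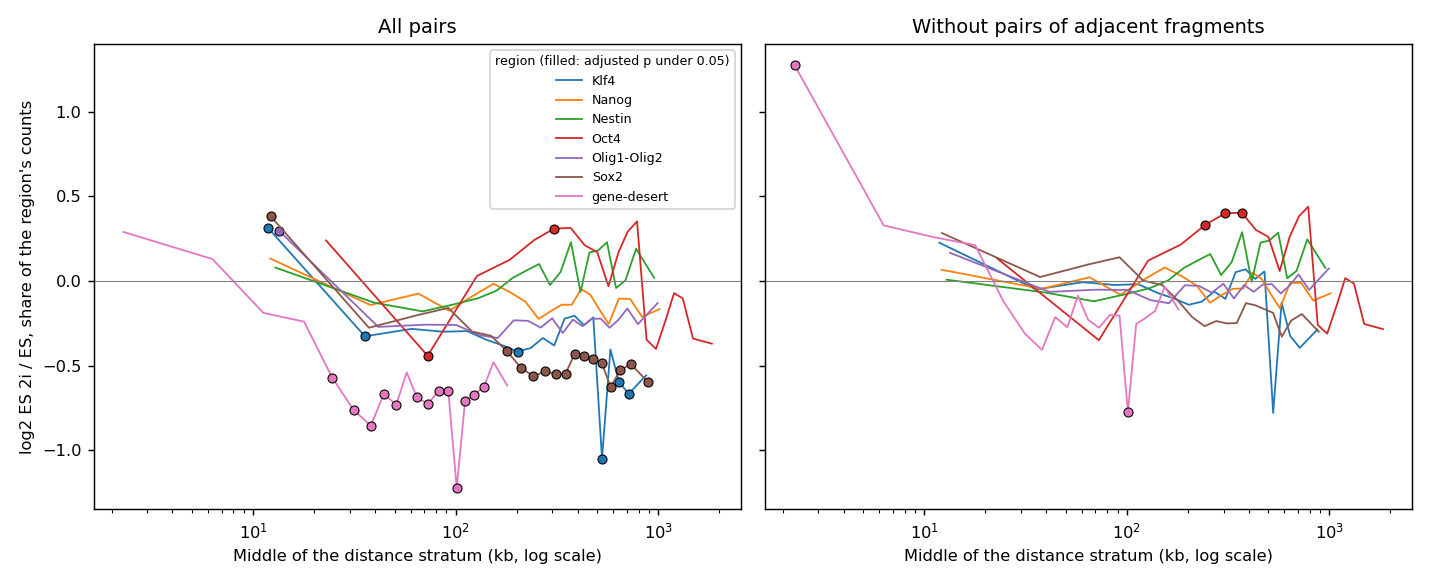
Log2 change, ES 2i over ES, of the share of each region's counts in 20 distance strata against the middle of the stratum in kb (log axis), with all pairs (left) and without adjacent fragments (right); filled points have an edgeR adjusted p under 0.05. The left panel has 37 filled points, mostly below 0 in Sox2 and the gene desert, and the right panel has 5.

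Whether iPS cells respond to 2i medium in the same way was tested as the difference between the 2 responses, which share no library. Without balancing, 39 pairs (0.0514%), 93 bin pairs (1.06%) and 11 fragments (0.712%) were called between iPS 2i and iPS cells, and the difference of responses was called for 1486 pairs (1.96%), 526 bin pairs (6.02%) and 282 fragments (18.3%). Fragment changes in ES cells and in iPS cells were nearly unrelated, with a Pearson correlation of 0.06 over 1544 fragments. With balancing, 46 pairs (0.0606%) and 478 bin pairs (5.47%) were called in iPS cells, and the difference of responses was called in edgeR for 0 bin pairs (756 at an unadjusted p under 0.05) and 3 single pairs (0.00395%). Balanced changes had a correlation of 0.40 between ES and iPS cells over 8407 bin pairs, and 66.9% of these had the same sign. Of the 505 called in ES cells, 92.9% had the same sign in iPS cells. Without adjacent pairs this was 88.3% of 369, against 64.3% of all 8314 bin pairs. These are descriptions over bin pairs that share libraries and fragments.

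Of the promoter windows, the Klf4 contact had a balanced log2 change of 0.61 in iPS cells (edgeR adjusted p = 0.0042), the Sox2 control region 0.54 (0.00254) and the Nanog downstream window 0.26 (0.0342), and the Olig1-Olig2 contact 0.33 (0.0152). Without adjacent pairs the Nanog call was lost in iPS cells (0.16, edgeR adjusted p = 0.0775), and the other 3 held. The balanced difference of responses passed for none of the 6 windows. With balancing, the bin 164 kb upstream of Pou5f1 was lower in iPS 2i cells too (O/E 0.230 and 0.309, against 0.656 and 0.631 in iPS cells; -1.26). The Sox2 bin at 48.4 kb was higher with balancing (2.00 and 1.90, against 1.28 and 1.25; 0.63).

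**Figure D5:**
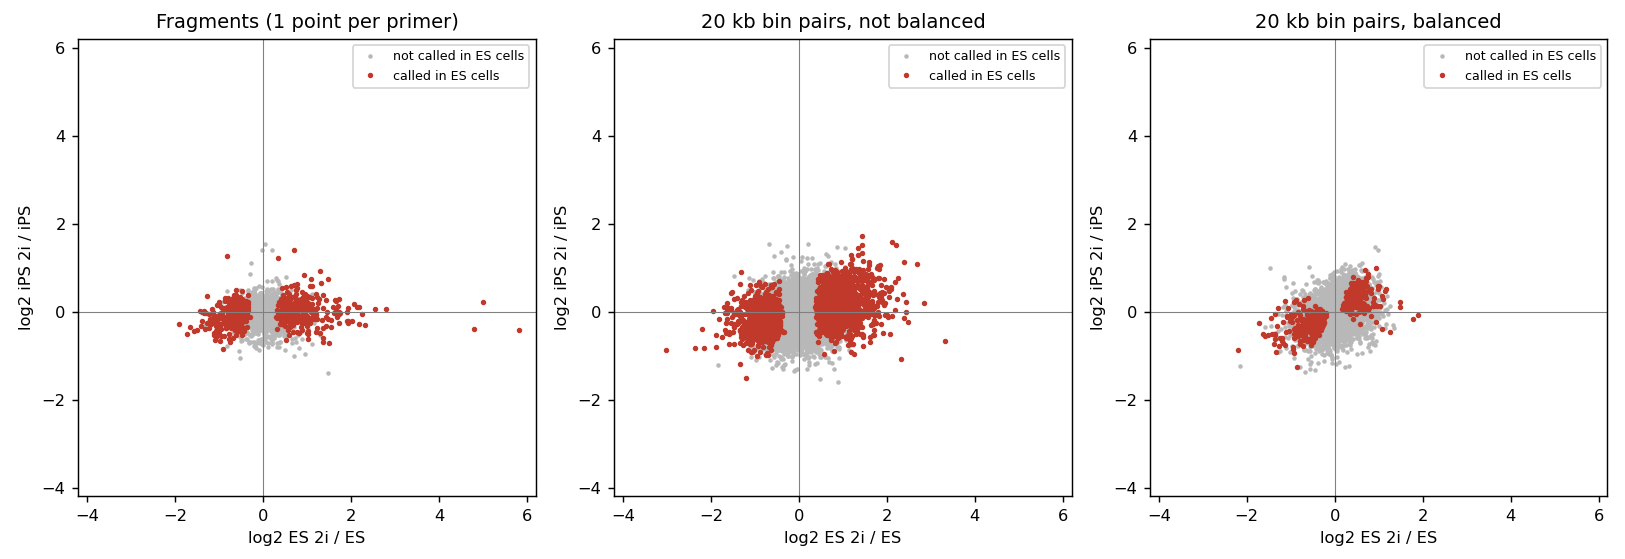
Log2 change in iPS cells (iPS 2i over iPS) against that in ES cells (ES 2i over ES) for fragments, for bin pairs without balancing and for bin pairs with balancing, with red points called in ES cells. Red points spread along the ES axis for fragments (correlation 0.06) and along the diagonal for balanced bin pairs (0.40 over all).

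RNA of the same groups came from other libraries, and 2705 of 11031 transcript models were called in edgeR (24.5%), 1249 higher (11.3%) and 1456 lower (13.2%). Of the 103 measured models that start in the regions, 14 were higher and 18 lower in ES 2i cells, with a median log2 change of -0.03. Klf4 had 161 and 156 CPM (counts scaled to the library total) in ES 2i cells, against 83.7 and 95.1 CPM in ES cells (log2 change 0.84, edgeR adjusted p = 1.32e-05), and Nanogpd had 72.4 and 59.3 CPM, against 39 and 22.4 CPM (1.03, 0.000121). Sox2 had 627 and 476 CPM in ES 2i cells and 477 and 576 CPM in ES cells, and Pou5f1 had 848 and 974 CPM in ES 2i cells and 1160 and 1117 CPM in ES cells; neither passed (edgeR adjusted p = 0.765 and 0.0874). The Sox2 groups overlapped and the Pou5f1 groups did not.

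Olig1 had 6.45 and 9.22 CPM in ES 2i cells, against 17.0 and 20.0 CPM in ES cells (-1.20, edgeR adjusted p = 6.75e-06), and Olig2 had 17.7 and 18.0 CPM, against 31.1 and 34.8 CPM (-0.86, 3.41e-05). Elsewhere in the regions Dppa3, a maternal and germ cell gene near Nanog, was lowest with 9.65 and 8.44 CPM in ES 2i cells, against 58.0 and 45.8 CPM in ES cells (-2.54), and Rhbg, an ammonium transporter gene near Nes, was highest (1.68). Nrm, a gene of the inner nuclear membrane whose start shares a bin with part of Mdc1, had 75.0 and 86.3 CPM in ES 2i cells, against 32.8 and 35.8 CPM in ES cells (1.25). Gene starts whose RNA was higher (7 genes) lay on 7 fragments, 2 of which were higher in 5C (median log2 change 0.37), and those whose RNA was lower (11 genes) lay on 11 fragments, 4 of which were higher (median -0.02). Of 45 gene starts whose RNA was not called, on 41 fragments, 15 lay on higher and 4 on lower fragments (median 0.28). Genes that share a fragment were counted each. The fragment shared by Mrps18b and Ppp1r10 stands both here and among those with higher RNA. Among all fragments 20.2% were higher and 17.6% lower.

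The RNA libraries also gave a check of medium and cell type. Of 8 measured genes that respond to the MEK-ERK pathway, 7 were lower and 1 was higher in ES 2i cells, among them Egr1 (1.57 and 1.30 CPM, against 17.9 and 24.8 CPM in ES cells) and Dusp6 (282 and 244 CPM, against 540 and 654 CPM). Of 7 measured ES core genes, 1 was lower (Dppa5a) and 0 higher, and 0 of 12 genes of CTCF, cohesin and related architecture passed in edgeR, with a median log2 change of -0.04. Of 6 measured feeder fibroblast markers, 2 were higher (Col3a1, Col1a2) and 3 lower (Acta2, Tagln, Thy1), with a summed level of 438 to 449 CPM in ES 2i cells and 1202 to 1391 CPM in ES cells; Lum, Dcn and Postn were not among the tested models. All 3 measured trophoblast markers were lower, with a sum of 37.1 to 38.9 CPM in ES 2i cells and 310 to 346 CPM in ES cells, as was the primitive endoderm gene Gata6. Of 5 measured neural progenitor markers, Olig1, Olig2 and Ncan were lower and Sox1 higher. Fewer cells of a type and less RNA per cell cannot be told apart in these bulk libraries, and the part of such cells in the 5C differences was not tested. Reads in no model made up 35.7% and 28.2% in the ES 2i RNA libraries, against 26.5% and 81.5% in the ES RNA libraries.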

How the data were processed

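5C was measured in 10 libraries of 5 groups and RNA in 10 others. Per the file headers and the labels' protocols, the authors' 5C files hold raw counts per primer pair, with chromatin cut by HindIII and alternating primers, and list only pairs with a count. The submitters' processing notes name Bowtie and mm9 for 5C, and TopHat2, HTSeq and mm9 for RNA, whose deposited values are raw counts per transcript model from stranded, ribosomal-RNA-depleted libraries. The authors also deposited bin values, per the file header distance-corrected and quantile-normalized, read here as log2 from their range, and a BED track of primer positions, used 1-based. In tables of the whole series 40 columns of per-sample values were not used. Filters and counting settings are not stated in the labels or headers.

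Pairs with a mean of at least 10 counts over the 10 5C libraries entered an edgeR 4.0.16 quasi-likelihood fit over all 10 libraries (R 4.3.3). The offset was the total of the pair's library, region and distance stratum (20 per region) times its mean share. Balancing added a per-primer offset over 60 rounds. Bins of 20 kb with at least 3 pairs, promoter windows of 10 kb on each side of a start, fragments and strata were fitted likewise, and p-values were adjusted over each whole table at 0.05. RNA was fitted with TMM scaling and a low-count filter. The fits of pairs, bins (also balanced), fragments, strata and RNA were checked on simulated data with known changes. DESeq2 1.42.0 and limma 3.58.1 gave alternatives, beside other strata, bins, filters, scaling, a replicate block, the 4 libraries alone and each library left out. The text names the 6 highest and 6 lowest bin pairs, 4 and 4 primer pairs (of these 8, 3 are described, chosen after their values were seen) and 5 and 5 fragments that were called, with groups apart and a mean of at least 50 counts (500 for fragments), and all fixed windows. The members and lists were chosen with earlier results of these data known, and leaving out adjacent pairs, the counts of libraries standing apart and the named neighbours were added after seeing the data.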

Additional observations from a re-analysis of the deposited data

Results flagged for a closer look

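The test of the difference between the 2i responses of ES and iPS cells was passed, in edgeR, by 1486 primer pairs, 526 bin pairs and 282 fragments without balancing and by 3 primer pairs with balancing. The 3 fragments that were nearly silent in ES cells stood out in this test, with a log2 difference, ES minus iPS, of 4.78 for the Olig1-Olig2 fragment, 5.18 for the Nestin fragment and 6.24 for the Nanog fragment.

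RNA of several genes in the regions also answered 2i medium differently in ES and iPS cells. Klf4 had a log2 change of 0.84 in ES and -1.08 in iPS cells, a difference of 1.92 (edgeR adjusted p = 5.39e-09), and Pou5f1 had -0.32 and -1.19, a difference of 0.87 (0.00103). For Sox2 (0.07 in ES and 1.52 in iPS cells) the difference was -1.45 (edgeR adjusted p = 1.18e-06), and for Nanogpd (1.03 and 2.93) it was -1.90 (0.000124). Olig1 differed by -1.06 (edgeR adjusted p = 0.00314) and Olig2 by -1.79 (3.78e-07). Nrm differed by 1.73, C2 by -2.54 and Dppa3 by -3.08. Groups of 2 libraries were not screened for single outlying libraries.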

How the results depend on the processing

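Of 77 alternative counts of calls, 43 stayed within 1.5 times the reported count. Pair calls were 366 with balancing, 612 with balancing and a mean of at least 50 counts, and 640 with balancing and a replicate block, and balanced pair calls were 640 with the block and 147 without adjacent pairs. Bin calls were 1164 in 40 kb bins, 526 with balancing, 746 with balancing and the block and 33137 in the authors' bin values, and balanced bin calls were 869 with the 4 libraries alone. Distance calls were 65 with the block and 5 without adjacent pairs. Calls of the difference between responses were 3 pairs and 0 bin pairs with balancing, and 2 bin pairs with balancing and without adjacent pairs. Between ES 2i and ES libraries, deviations of the same replicate number had a correlation of 0.08 in bins and 0.09 in fragments, against 0.35 and 0.44 between ES 2i and iPS 2i libraries. The labels tie a number to no shared batch, so the numbers were not taken to pair the samples. With the block alone 10335 pairs, 2830 bins and 686 fragments were called.

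With each library left out, calls were 2505 to 4709 pairs, 944 to 1901 bins, 249 to 453 fragments and 0 to 48 strata, and with balancing 4 to 565 pairs and 0 to 327 bins; the cause was not tested. Of single values 162 kept direction and call, 21 lost the call and 9 turned. The balanced change of the upstream Nanog window was -0.063 without adjacent pairs and -0.051 to 0.13 with a library left out, and that of Olig1-Olig2 was 0.026 without adjacent pairs, 0.75 in the authors' bin values and -0.036 to 0.0073 with a library left out. Nes-Bcan was 0.32 in the authors' values, RNA of Sox2 ran from -0.12 to 0.25 and RNA of Nes from -0.76 to 3.36 with a library left out. The ES 2i libraries had fewer counts than the ES libraries, which limits the precision of single pairs.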
